A study of Mus musculus with 10 samples.

Results

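Messenger RNA of 10 lysosomal cathepsins was examined in sorted mouse microglia. The genes were chosen by name as members of the cathepsin family, Ctsa, Ctsb, Ctsc, Ctsd, Ctsf, Ctsh, Ctsk, Ctsl, Ctss and Ctsz, which makes 10 of the 49315 genes in the deposited tables. Ctsg, a granule protease of neutrophils, was left out of the set, and Ctse, Ctso and Ctsw were counted with other lysosomal proteases. All 10 were found by identifier, and all 10 passed the filter on low counts in every comparison. The study compared microglia, the resident macrophages of the brain, with and without surface CD11c, the integrin chain encoded by Itgax. The cells were sorted by flow cytometry from brains of wild-type C57BL/6 mice at postnatal day 5 (P5) and at an age of 9 months. There were 4 groups, namely 3 libraries of each subset at P5 and 2 of each at 9 months. No treatment is named for any group. Per the labels' protocols, SMART-Seq v4 amplification is stated for the 9-month libraries only. Age and library preparation therefore cannot be told apart, and the ages were not tested against each other within CD11c+ or CD11c- cells. Whether replicates were separate animals is not stated in the labels, so p-values reflect only the spread of these libraries, which may be technical.

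Cathepsins are proteases made as inactive precursors, carried to endosomes and lysosomes largely by mannose 6-phosphate receptors, and activated there at acid pH. Most are cysteine proteases, while Ctsd is an aspartic and Ctsa a serine protease. In microglia and other phagocytes they digest engulfed material, and Ctss, Ctsl and Ctsf take part in trimming the invariant chain that guards MHC class II molecules.

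Total counts ranged from 11892082 to 25483573 per library, apart from the library labelled P5 CD11c+ replicate 2, which had 2619610. Across 15410 genes, its log2 values had correlations of 0.703 to 0.769 with the remaining P5 libraries, against 0.934 to 0.991 among the other 5. It held 23033 genes at 1 CPM (counts scaled to library size) or more, where the other 9 libraries held 12762 to 14735. Its Itgax level was 47.5 scaled CPM, below the 69.5 of P5 CD11c- replicate 2, while the other P5 CD11c+ libraries stood at 232 and 138. The tests at P5, the difference between ages and the nearest genes are therefore also given without it. Markers of homeostatic microglia were present in all groups. However, 15 neutrophil markers made up 13.8% to 18.8% of all counts in the 9-month CD11c- libraries and 0.141% to 0.227% in the CD11c+ ones. At P5, 14 markers of border-associated macrophages made up 1.42% to 1.84% of counts in CD11c+ and 0.0884% to 0.168% in CD11c- libraries. The 15 homeostatic microglia markers made up 1.21% to 1.54% and 1.31% to 2.32% there. In each P5 CD11c+ library the border-associated markers held a larger share than the homeostatic ones. Mitochondrially encoded transcripts took 7.19% to 28.1% of counts in the P5 CD11c- libraries and 0.791% to 2.8% in the P5 CD11c+ ones.

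RefSeq promoter sequences (GRCm38.p6, 250 bases before to 50 after each start) were found for 8 of the 10 cathepsins, in 9 windows. They were searched on both strands for TCACGTGA, the form of E-box typical of genes bound by the lysosomal regulator TFEB, for its core CACGTG, and for GAGGAAGT, a motif of the myeloid factor PU.1. The first contains the core, so the matches overlap. TCACGTGA was found in Ctsa and Ctsd, 22.2% of the cathepsin windows, and in 0.974% of all 32851 windows. Windows of sorting genes held TCACGTGA in 33.3%, of acidification genes in 25%, and of other lysosomal proteases and of membrane genes in 14.3% each. Other hydrolases held TCACGTGA in 3.85% and cathepsin inhibitors in 0%. CACGTG was also found in Ctsf and Ctsl, making 4 of the 9 cathepsin windows (44.4%), against 7.15% of all windows. It was not particular to the cathepsins among lysosomal genes. Windows of genes for enzyme sorting held it in 46.7%, for acidification in 31.2% and for other lysosomal proteases in 28.6%. Those of other hydrolases held it in 23.1%, of lysosomal membrane genes in 21.4% and of cathepsin inhibitors in 0%. GAGGAAGT, read on the other strand as ACTTCCTC, was found in Ctsc and Ctss, 22.2% of the cathepsin windows, and in 3.2% of all windows. Other hydrolases held GAGGAAGT in 7.69% of windows and the remaining lists named here in 0%. The stretches with the matches are shown because the genes that hold each motif can then be followed through the comparisons. They run 5′ to 3′ on the gene's strand, and capitals mark the matches.
Ctsa, chr2:164833749-164833778, + strand: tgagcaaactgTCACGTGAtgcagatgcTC
Ctsd, chr7:142387908-142387937, - strand: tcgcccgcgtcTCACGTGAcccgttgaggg
Ctsl, chr13:64370739-64370768, - strand: ggcgttagaagcCACGTGctgatctaaatt
Ctsf, chr19:4855074-4855103, + strand: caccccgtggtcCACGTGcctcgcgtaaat
Ctss, chr3:95526773-95526802, + strand: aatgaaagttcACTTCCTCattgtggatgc
Ctsc, chr7:88277923-88277952, + strand: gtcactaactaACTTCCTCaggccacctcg
The last capitals of the Ctsa stretch are the first bases of a second TCACGTGA that begins 4 bases after the start site. In GENCODE M21, the Ctsa, Ctsd, Ctsl and Ctss stretches overlap an untranslated first-exon region of at least 1 transcript of their own gene, and those of Ctsc and Ctsf overlap no annotated feature. A match is a description of the letters and does not show that a factor binds there.

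Ctsd and Ctss were the most abundant cathepsin transcripts at 9 months. By group means, Ctsd and Ctsb led in the P5 CD11c+ libraries and Ctss, Ctsd and Ctsb in the P5 CD11c- libraries. Levels between genes were compared as TPM, the transcript share per library, which divides counts by the summed exon length. In the 9-month CD11c+ libraries, Ctss reached 16655 and 17679 TPM and Ctsd 16375 and 15402 TPM, ranks 3 to 5 among all genes. In the 9-month CD11c- libraries, Ctss stood at 4238 and 4197 TPM and Ctsd at 2961 and 2733 TPM, ranks 21 to 34. The order there was Ctss, Ctsd, Ctsz and Ctsb in both subsets, with no overlap between neighbours among these 4 genes. Ctsa, Ctsl, Ctsh, Ctsc and Ctsf followed, from 1413 down to 586 TPM in CD11c+ libraries and from 326 down to 66.9 TPM in CD11c- libraries. Among those lower genes, Ctsh and Ctsc overlapped in CD11c+ libraries, and Ctsh, Ctsl and Ctsa overlapped in CD11c- libraries.

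At P5 the order was less sharp. Ctsd led the CD11c+ libraries with 7314, 2761 and 5739 TPM, followed by Ctsb with 6329, 1734 and 4982 TPM. Replicate 2 was the lowest for both, and in the other 2 libraries the order of Ctsd and Ctsb was the same. In the P5 CD11c- libraries Ctss stood at 4681, 2298 and 1995 TPM, Ctsd at 4137, 3013 and 1576 TPM and Ctsb at 3076, 2068 and 1116 TPM. Neighbours among the leading 5 genes overlapped in both P5 groups. Ctsl was a leading gene at P5, at 541 to 4412 TPM, and a minor one at 9 months, at 255 to 1253 TPM. Ctsh was at 32.3 to 184 TPM at P5 and at 256 to 782 TPM at 9 months. These ages are set side by side only, because the preparation differed.

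Ctsk, the collagen-cutting protease best known from osteoclasts, was near the limit of detection in every group. It had 9 to 51 counts per library, or 0.443 to 5.74 TPM. On chromosome 3 it lies 17423 bases upstream of Ctss, which was at 597 to 17679 TPM in the same libraries.

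**Figure D1:**
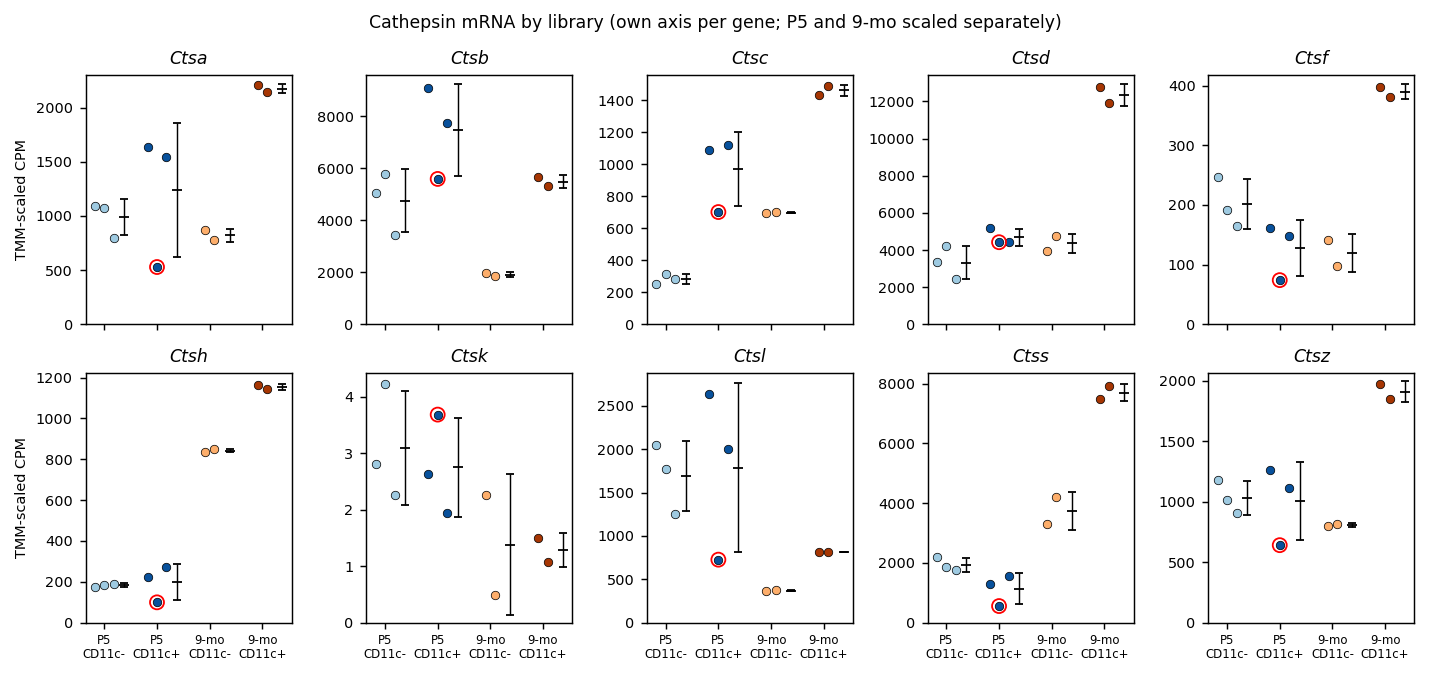
TMM-scaled CPM (vertical, linear, own axis for each gene, starting at 0) of the 10 cathepsins in each library, by group; points are libraries, bars to the right are mean ± SD, and a red ring marks P5 CD11c+ replicate 2. All genes but Ctsk have both 9-month CD11c+ points above both CD11c- points, and at P5 the ringed library is the lowest of its group for all genes but Ctsk, with Ctsd at 4420 against 4429 in replicate 3.

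At 9 months, 9 of the 10 cathepsins were higher in the CD11c+ than in the CD11c- libraries, by 1.37-fold for Ctsh to 3.26-fold for Ctsf. Across all 15740 genes tested, 14.8% were called higher by the same rule and 18.2% lower, 33.0% in all. The rule was an adjusted p below 0.05 in edgeR's quasi-likelihood test with Benjamini-Hochberg adjustment over all genes. The median log2 fold change of the 10 was 1.20, against 0.02 for all genes tested and 1.32 for 15 homeostatic microglia markers. Scaling to those markers left 0 cathepsins called higher. The CD11c- libraries were not of microglia alone, since neutrophil markers made up 13.8% to 18.8% of their counts. The same 9 genes had both CD11c+ libraries above both CD11c- libraries, as did 36.1% of all genes. When all 10 libraries were fitted together, 0 of the 10 cathepsins were called at 9 months (edgeR adjusted p = 0.0585 to 0.993). In bulk samples such as these, fewer cells of a type and less RNA per cell cannot be told apart.

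Among the endopeptidases, which cut within a protein chain, the aspartic protease Ctsd stood at 12755 and 11924 CPM in CD11c+ libraries and at 3973 and 4731 CPM in the CD11c- ones. CPM here and below are scaled by edgeR's trimmed mean of M values (TMM) within each age. The group means of Ctsd were 12339 ± 587 and 4352 ± 536 (SD, n = 2 each), the groups were well apart, and the log2 fold change was 1.5 ± 0.15 (SE; edgeR adjusted p = 0.000596). Ctsb, a cysteine protease that also trims dipeptides from protein ends, was at 5660 and 5308 CPM against 1968 and 1843 CPM. Its log2 fold change was 1.53 ± 0.14 (edgeR adjusted p = 0.000358), close to that of Ctsd. Ctsl, a cysteine endopeptidase of broad specificity, was at 810 and 813 CPM against 362 and 371 CPM. Its libraries agreed closely within each group, and it rose by 1.15 ± 0.13 on the log2 scale (edgeR adjusted p = 0.00108).

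Ctss, a cysteine protease of antigen-presenting cells that stays active at neutral pH, was at 7493 and 7906 CPM in CD11c+ and at 3285 and 4197 CPM in CD11c- libraries. The CD11c- libraries differed from each other by more than the CD11c+ libraries did, yet did not reach them, and the log2 fold change was 1.04 ± 0.16 (edgeR adjusted p = 0.00378). Ctsf, another cysteine protease able to process the invariant chain, was at 399 and 381 CPM against 142 and 97.3 CPM. It had the largest log2 fold change of the 10 at this age, 1.70 ± 0.2 (edgeR adjusted p = 0.00124).

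The exopeptidases, which trim protein ends, were also higher. Ctsa, a carboxypeptidase that shields beta-galactosidase and neuraminidase from breakdown, was at 2207 and 2143 CPM against 865 and 778 CPM. Ctsz, a carboxypeptidase, was at 1974 and 1849 CPM against 795 and 817 CPM. Ctsc, the dipeptidyl peptidase that activates granule serine proteases, was at 1435 and 1487 CPM against 694 and 700 CPM. All 3 had groups that did not overlap, and their log2 fold changes were 1.40 ± 0.14 for Ctsa, 1.25 ± 0.13 for Ctsz and 1.07 ± 0.13 for Ctsc (edgeR adjusted p = 0.000552, 0.000789 and 0.00139).

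Ctsh, mainly an aminopeptidase, had the smallest change of the 9. It was at 1165 and 1142 CPM in CD11c+ libraries and at 836 and 848 CPM in CD11c- libraries, a log2 fold change of 0.45 ± 0.13 (edgeR adjusted p = 0.0364). The adjusted p of Ctsh rose to 0.111 without CD11c+ replicate 1, 0.0919 without CD11c+ replicate 2 and 0.0641 without CD11c- replicate 1. Ctsk was at 1.5 and 1.08 CPM against 2.27 and 0.494 CPM, and its groups overlapped. Its log2 fold change of -0.11 ± 0.83 (edgeR adjusted p = 0.936) leaves a wide range open at this depth.

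The 9-month difference depended on what the counts were scaled to. Cathepsins took 3.82% and 3.79% of all counts in CD11c+ and 1.20% and 1.19% in CD11c- libraries, while 15 homeostatic microglia markers such as P2ry12 and Tmem119 took 4.63% to 5.09% and 1.29% to 1.47%. All 15 of those markers were called higher in CD11c+ cells under TMM. When libraries were scaled to the summed counts of these markers, 0 cathepsins were called higher and 1 lower. Under that scaling 0.432% of all genes were called higher and 63.7% lower, 64.2% in all, and the median of all genes moved to -1.42, against -0.24 for the cathepsins. Ctsh was the gene called lower, with a log2 fold change of -0.99 ± 0.15 (edgeR adjusted p = 0.00117).

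Relative to the homeostatic markers, Ctsd (0.06 ± 0.16), Ctsb (0.08 ± 0.15) and Ctsa (-0.04 ± 0.15) lay within 1 SE of 0. Ctsf had the highest value (0.27 ± 0.21), and Ctsz (-0.20 ± 0.15), Ctsl (-0.29 ± 0.15), Ctsc (-0.37 ± 0.16) and Ctss (-0.40 ± 0.19) were below 0. The edgeR adjusted p of these 8 genes ranged from 0.074 to 0.853. Monocyte markers moved with the CD11c- libraries as the neutrophil markers did, with 8 of 8 lower in CD11c+ cells and a summed share of 0.0260% to 0.0350% against 1.14% to 1.37%. All 15 neutrophil markers were detected in every 9-month library, and all 15 were lower in CD11c+ cells. Ctsg, which belongs to neutrophil precursors, had 17 and 1 counts in CD11c+ and 2338 and 1864 counts in CD11c- libraries. Markers of border-associated macrophages moved the other way at this age, with 13 of 14 called higher in CD11c+ cells and 1 lower. Their summed share was 0.208% to 0.221% in CD11c+ and 0.0558% to 0.0656% in CD11c- libraries. Of 8 dendritic cell markers, 5 were called higher and 0 lower. Siglech, among those called higher, is also 1 of the 15 homeostatic microglia markers, so it does not tell these cell types apart. Scaled to homeostatic markers, 11 of the 14 and 2 of the 8 were still called higher. The CD11c+ libraries thus also held RNA of markers of other cell types. Apart from that scaling, the part of any of these cells in the cathepsin differences was not tested.

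**Figure D2:**
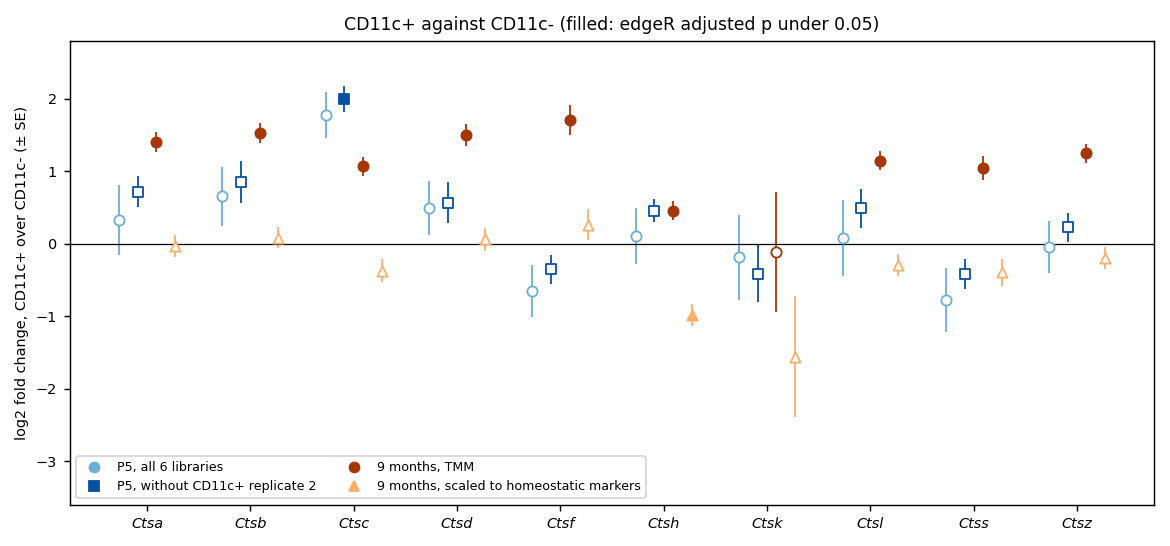
Log2 fold change of CD11c+ over CD11c- (vertical) with its SE for each cathepsin at P5 with all 6 libraries, at P5 without CD11c+ replicate 2, and at 9 months under TMM and under scaling to homeostatic markers; filled symbols have an edgeR adjusted p below 0.05. Under TMM 9 symbols are filled at 9 months, under the other scaling Ctsh alone is filled at -0.99, and at P5 Ctsc alone is filled, without replicate 2.

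At P5, 0 of the 10 cathepsins passed the test with all 6 libraries, and 0.299% of the 15410 genes tested did. At an unadjusted p below 0.05 there was 1, Ctsc, and the share of all genes at that threshold is not given here. The median log2 fold change was 0.10, against 0.06 for all genes. On scaled CPM, all CD11c+ libraries were above all CD11c- libraries for Ctsc and Ctsd, as for 8.39% of genes, and below them for Ctsf and Ctss, as for 8.68% of genes. On CPM without TMM, Ctsb too was above without overlap, and Ctsf and Ctss overlapped.

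Ctsc was at 1089, 701 and 1118 CPM in P5 CD11c+ libraries and at 251, 314 and 282 CPM in CD11c- libraries. Its lowest CD11c+ library, replicate 2, was still above every CD11c- library. The group means were 969.6 ± 233 and 282 ± 31.7 (SD, n = 3 each), and the log2 fold change was 1.78 ± 0.32 (edgeR adjusted p = 0.113). Without replicate 2, Ctsc rose by 2.0 ± 0.17, or 3.99-fold (edgeR adjusted p = 0.0014). It was the 1 of 10 cathepsins called in that fit, where 5.06% of 15841 genes were called higher and 4.42% lower, 9.48% in all. DESeq2 called Ctsc with all 6 libraries (adjusted p = 2.06e-11), and the share of all genes that it called is not given here. Scaled to homeostatic markers without replicate 2, the log2 fold change of Ctsc was 2.21 ± 0.28 (edgeR adjusted p = 0.00635). It was again the 1 cathepsin called, where 5.29% of all genes were called higher and 6.87% either way. In the TMM fit without replicate 2, 4 of the 15 scaling markers were themselves called lower and 0 higher (median -0.76). Scaling to them moved the median of all genes to 0.24.

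Ctss was at 1301, 552 and 1543 CPM in P5 CD11c+ libraries and at 2196, 1847 and 1764 CPM in CD11c- libraries. Ctsf was at 161, 74.0 and 147 CPM against 247, 192 and 165 CPM. Both genes were lower in every CD11c+ library, with log2 fold changes of -0.77 ± 0.45 for Ctss and -0.66 ± 0.36 for Ctsf, neither past the threshold (edgeR adjusted p = 0.8 for both). Without replicate 2 these values were -0.42 ± 0.21 and -0.35 ± 0.20 (edgeR adjusted p = 0.25 and 0.3).

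Ctsb was at 9088, 5594 and 7749 CPM against 5034, 5798 and 3443 CPM. Only replicate 2 fell below a CD11c- library, and the log2 fold change was 0.65 ± 0.41 with it and 0.85 ± 0.29 without it (edgeR adjusted p = 0.8 and 0.112). Ctsd was at 5210, 4420 and 4429 CPM against 3359, 4192 and 2413 CPM, with a log2 fold change of 0.50 ± 0.37 with replicate 2 and 0.57 ± 0.29 without it (edgeR adjusted p = 0.801 and 0.251). Ctsa was at 1640, 528 and 1544 CPM against 1095, 1071 and 797 CPM. In Ctsa, as in Ctsl at 2635, 726 and 2006 CPM against 2050, 1771 and 1250 CPM, replicate 2 was the lowest of all 6 libraries. Without it, the log2 fold change of Ctsa was 0.72 ± 0.21 and that of Ctsl 0.49 ± 0.27 (edgeR adjusted p = 0.0767 and 0.294).

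Ctsz and Ctsh were lower in replicate 2 than in any other P5 library, at 641 and 99.0 CPM. The other P5 libraries lay between 903 and 1259 CPM for Ctsz and between 175 and 272 CPM for Ctsh. The log2 fold changes without it were 0.23 ± 0.2 for Ctsz and 0.46 ± 0.15 for Ctsh (edgeR adjusted p = 0.51 and 0.106). Ctsk stood at 1.94 to 3.68 CPM in CD11c+ and 2.25 to 4.22 CPM in CD11c- libraries, with overlapping groups. Without replicate 2, 5 cathepsins, namely Ctsa, Ctsb, Ctsc, Ctsd and Ctsh, were above without overlap and 2, Ctsf and Ctss, below, where 22.5% of all genes were above and 24.4% below. The markers of border-associated macrophages moved with the P5 groups in the same fit, with all 14 called higher, none at 0 counts in any P5 library, and a median log2 fold change of 4.87. Their part in the P5 values was not tested.

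The 2 ages were then compared through the difference between their CD11c differences, in 1 fit over all 10 libraries. A positive value means a higher CD11c+ to CD11c- ratio at 9 months. By edgeR, 0 of 10 cathepsins passed, and 1.86% of 19555 genes did. At an unadjusted p below 0.05 there were 3: Ctsf (2.54 ± 0.63, adjusted p = 0.0778), Ctss (1.95 ± 0.75, 0.235) and Ctsz (1.45 ± 0.61, 0.276). DESeq2 called these 3 genes with all 10 libraries. The shares of all genes at that unadjusted threshold and by DESeq2 are not given here. In 9 of 10 genes the difference was positive, and Ctsc, at -0.54 ± 0.54, was the exception. The median of the 10 was 1.20, against -0.06 for all genes tested.

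Without P5 CD11c+ replicate 2, edgeR called the same 3 genes, where 8.76% of 18348 genes were called higher and 10.3% lower, 19.1% in all. The differences were 2.19 ± 0.32 for Ctsf (edgeR adjusted p = 0.00156), 1.56 ± 0.35 for Ctss (0.0124) and 1.13 ± 0.30 for Ctsz (0.0254). On scaled CPM, Ctsf and Ctss were the 2 genes lower in every CD11c+ library at P5 and higher in both at 9 months. Ctsc was the reverse case, with -0.82 ± 0.26 (edgeR adjusted p = 0.0548).

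These 3 calls did not hold when libraries were scaled to homeostatic markers, of which 14 of 15 were themselves called higher without replicate 2. With all libraries, 1 cathepsin, Ctsc, was then called lower (-2.47 ± 0.47, edgeR adjusted p = 0.00524), where 0.0716% of all genes were called higher and 33.7% either way. Without replicate 2 Ctsc (-2.58 ± 0.39, 0.000378), Ctsh (-1.67 ± 0.36, 0.00245), Ctsa (-1.0 ± 0.36, 0.0355) and Ctsl (-1.04 ± 0.38, 0.0385) were called lower. In the latter fit 54.0% of all genes were called lower and 54.6% either way, and Ctsf (0.35 ± 0.33) was the 1 cathepsin with a value above 0. This scaling moved the median difference of all genes to -2.04 with all libraries and to -1.54 without replicate 2. The medians of the 10 cathepsins were -0.753 and -1.003. Most genes thus had a negative value there, so the negative sign of Ctsc does not back its TMM value, which was not called. Ctsc lay within 1 SE of the median of all genes with all libraries, and further below it without replicate 2. The sign for Ctsa, Ctsb, Ctsd, Ctsh, Ctsk, Ctsl and Ctsz depended on the scaling with or without replicate 2. The SMART-Seq amplification of the 9-month libraries cannot be told apart from age in these differences.

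The make-up of the family, taken as each gene's share of the summed cathepsin TPM in its library, does not depend on how libraries are scaled. The shares add up to the whole, so a larger share of some cathepsins must go with smaller shares of others. At P5, Ctsb made up 24.1%, 25.8% and 23.0% of cathepsin TPM in CD11c+ libraries, against 16.6%, 19.1% and 15.6% in the CD11c- ones. Ctsc made up 2.35%, 2.64% and 2.71% against 0.674%, 0.846% and 1.04%. Ctss made up 12.02%, 8.88% and 16.0% against 25.2%, 21.3% and 27.9%. In this measure P5 CD11c+ replicate 2 sided with its group for these 3 genes. It stood apart from its group for Ctsd, at 41.1% against 27.80% and 26.52% in the other P5 CD11c+ libraries. The same held for Ctsl, at 8.05% against 16.77% and 14.33%, and for Ctsa, at 2.45% against 4.364% and 4.612%. Its share was the highest of all P5 libraries for Ctsd, and the lowest for Ctsl and Ctsa. Ctsb and Ctsc were the 2 genes above without overlap, and Ctsf, Ctss and Ctsz the 3 below, where 4.33% of all genes, set against the same cathepsin sum, were above and 15.1% below. Genes outside the family are not part of that sum, so these percentages are not a like background for the cathepsin counts. The gap was narrow for Ctsz, with 9.72% to 10.96% against 11.005% to 13.5%.

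At 9 months Ctsd made up 35.9% and 34.1% of cathepsin TPM in CD11c+ libraries, against 29.0% and 29.7% in the CD11c- ones. Ctss made up 36.6% and 39.2% against 41.5% and 45.6%. Ctsh made up 1.72% and 1.71% against 3.19% and 2.79%. Above without overlap were 3 genes (Ctsb, Ctsd and Ctsf) and below were 4 (Ctsc, Ctsh, Ctsl and Ctss), where 4.38% of all genes were above and 75.5% below. Cathepsins took a larger part of all counts in CD11c+ libraries, which lowers this ratio for genes outside the family. The percentages are again not a like background. For Ctsl the shares of 2.72% and 2.78% against 3.16% and 2.78% nearly met. The gaps were also narrow for Ctsc, at 1.64% and 1.72% against 2.05% and 1.78%, and for Ctsf, at 1.34% and 1.30% against 1.23% and 0.728%. At both ages the CD11c+ share of Ctsb was the higher and that of Ctss the lower. Set side by side only, Ctsb was at 15.6% or more at P5 and at 7.91% or less at 9 months, and Ctsl at 8.05% or more and at 3.16% or less.

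**Figure D3:**
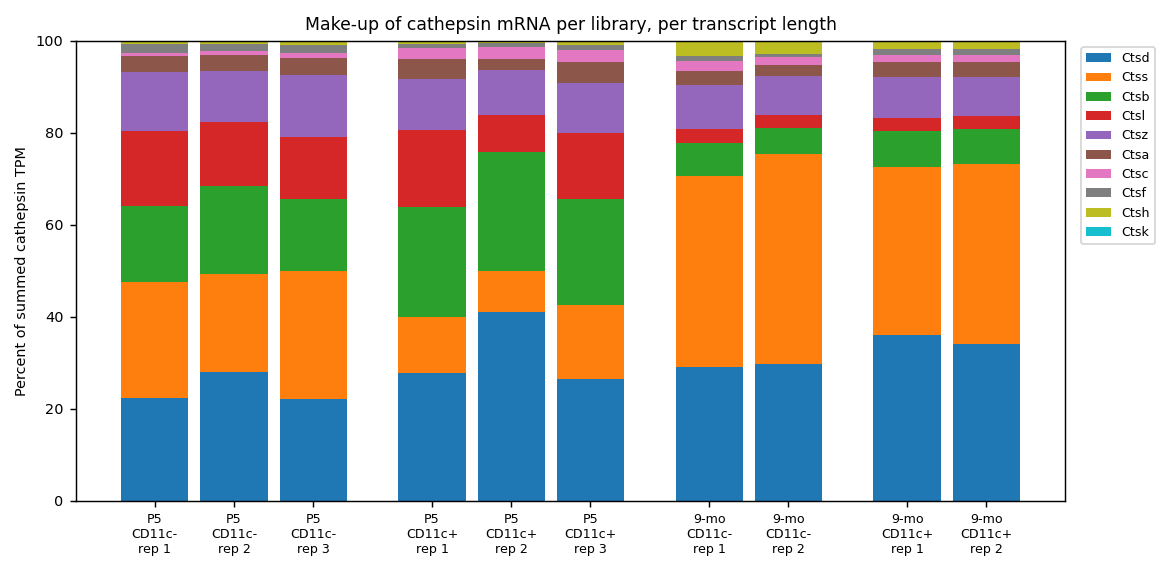
Share of each cathepsin in the summed cathepsin TPM (vertical, percent, bars from 0 to 100) in each of the 10 libraries, by group and replicate. Ctsd, Ctss, Ctsb, Ctsl and Ctsz fill most of each P5 bar; in the 9-month bars Ctsd and Ctss dominate, with Ctss at 36.6% to 45.6%.

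Other genes of the lysosome were counted to place the cathepsins. At 9 months, 21 of 30 other hydrolases were called higher and 1 lower (median log2 fold change 1.12). The 3 with the smallest p were the phospholipase Pla2g15 (1.76 ± 0.15), the phosphatase Acp2 (1.74 ± 0.16) and the iduronidase Idua (1.43 ± 0.15; edgeR adjusted p = 0.000313, 0.000372 and 0.000769). Of 10 other lysosomal proteases tested, 7 were higher and 2 lower, with Tpp1, a tripeptidyl peptidase, at 1.58 ± 0.15 and the aspartic proteases Ctse and Napsa at -2.70 ± 0.23 and -2.10 ± 0.21. Ctse and Napsa thus differed in direction from Ctsd, the aspartic protease among the 10. Of 15 lysosomal membrane genes 9 were higher and 0 lower, and of 9 genes of MHC class II processing, the pathway that Ctss serves, 8 were higher and 0 lower. The proton pump and ion transport genes were split, with 4 of 18 higher and 6 lower and a median of -0.10. The hydrolase median was close to the 1.20 of the cathepsins, and that of acidification genes was not. Scaled to homeostatic markers, 0 genes in any of these 5 lists were called higher. Called lower were then 11 of 30 hydrolases, 2 of 10 proteases, 11 of 15 membrane, 5 of 9 MHC class II processing and 16 of 18 acidification genes, beside 1 of 10 cathepsins and 63.7% of all genes.

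Of 15 genes that sort enzymes to the lysosome, 6 were higher and 2 lower at 9 months under TMM, and 0 higher and 11 lower when scaled to homeostatic markers. The cation-dependent mannose 6-phosphate receptor M6pr was at 0.69 ± 0.14, and Igf2r, the cation-independent one, at -3.98 ± 0.41 (edgeR adjusted p = 0.00902 and 0.000681). Levels of Igf2r were low, with means of 0.741 CPM in CD11c+ and 11.8 CPM in CD11c- libraries. M6pr turned to -0.75 ± 0.16 under the marker scaling (edgeR adjusted p = 0.00528). Grn, the precursor of granulins, which are known to bear on Ctsd activity, was at 1.26 ± 0.15 under TMM (edgeR adjusted p = 0.00113) and at -0.17 under the marker scaling (0.38). Among 13 cathepsin inhibitors tested, 1 was higher and 8 lower under TMM, and 0 higher and 12 lower under the marker scaling. These gene counts do not describe the total of inhibitor mRNA. Summed, the 14 listed inhibitors took 2.198% to 2.231% of all counts in CD11c+ libraries and 1.006% to 1.216% in CD11c- libraries. The gene called higher was Cst3, cystatin C, a secreted inhibitor of cysteine cathepsins, at 0.74 ± 0.18 (edgeR adjusted p = 0.0222). Cst3 turned to -0.70 ± 0.2 under the marker scaling (edgeR adjusted p = 0.0175). Far lower were Serpinb1a (-6.15 ± 0.32), which acts on neutrophil serine proteases including Ctsg, and the stefin genes Stfa1 (-7.26 ± 0.49) and Stfa2l1 (-8.24 ± 0.37), near-identical copies that may share reads. Their means in CD11c+ libraries were 12.7, 0.125 and 0.195 CPM, against 900.6, 20.1 and 61.1 CPM in the CD11c- libraries, where the neutrophil markers were high.

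Of the 6 transcription factors of the lysosome, Tfe3 was higher under TMM (1.09 ± 0.17, edgeR adjusted p = 0.00335). Under the marker scaling Tfe3 was at -0.36 (edgeR adjusted p = 0.092). Tfec was lower under TMM (-1.95 ± 0.38, edgeR adjusted p = 0.00853). Its levels were low, with means of 1.80 CPM in CD11c+ and 6.96 CPM in CD11c- libraries. Tfeb itself was at -0.27 ± 0.25 (edgeR adjusted p = 0.447). The cathepsins with TCACGTGA in the promoter, Ctsa and Ctsd, had 9-month log2 fold changes of 1.40 and 1.5, and Ctsf and Ctsl, with CACGTG alone, 1.70 and 1.15. The 2 with GAGGAAGT, Ctss and Ctsc, had 1.04 and 1.07. Ctsz and Ctsk, whose promoters held no match, had 1.25 and -0.11. Ctsb and Ctsh, for which no promoter sequence was found, had 1.53 and 0.45. A link between motifs and fold changes was not tested.

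At P5, 1 gene of these lists passed with all libraries, the heparan sulfate sulfamidase Sgsh (1.98 ± 0.26, edgeR adjusted p = 0.0479), among the 30 hydrolases. Without CD11c+ replicate 2, 9 of 30 hydrolases were called higher, 2 of 10 other proteases, 1 of 15 sorting, 2 of 18 acidification, 2 of 15 membrane, 1 of 6 transcription factor and 5 of 9 MHC class II processing genes, and 0 lower in any of them. The count of 1 of 10 cathepsins is set beside these, and beside 5.06% of all genes. Inhibitors were the list with lower calls in that fit, with 2 of 13 higher and 5 lower. Among them Ctla2b, an inhibitor that resembles a cathepsin propeptide, was at 2.04 and Stfa1 at -3.59 (edgeR adjusted p = 0.00259 and 0.0251).

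**Figure D4:**
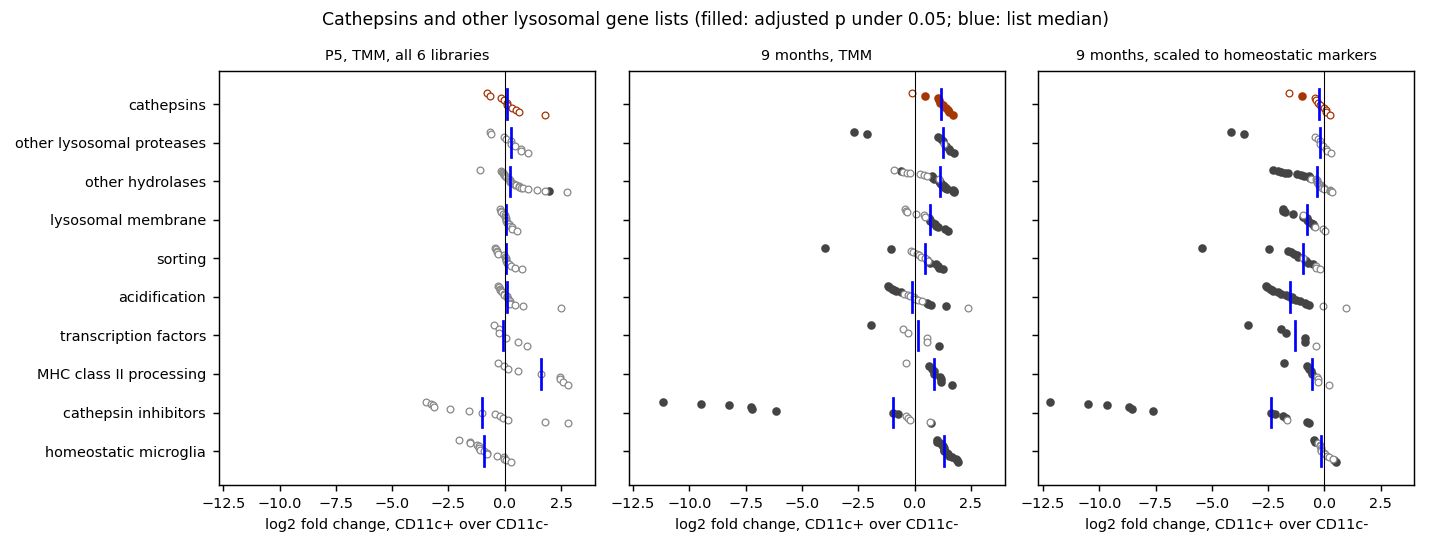
Log2 fold change of CD11c+ over CD11c- (horizontal) of each tested gene in the cathepsin set, 8 other lists of the lysosome and the homeostatic markers, at P5, at 9 months under TMM and at 9 months scaled to homeostatic markers; filled points have an edgeR adjusted p below 0.05 and blue bars are list medians. The cathepsins lie around 0.10 at P5, 1.20 at 9 months and -0.24 under the marker scaling.

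For each cathepsin, the gene outside the set with the most similar pattern was found among 4937 genes of average log2 CPM of 5 or more. Likeness was the root mean square difference of log2 CPM over the 10 libraries, after each gene was centred within each age. Ctsz was nearest to Rin2 (0.041), Ctsa to Npl (0.088), Ctsh to Akr1b3 (0.093) and Ctsl to Syngr1 (0.106). Ctss was nearest to Ntpcr (0.127), Ctsf to Cd34 (0.131), Ctsb to Cd86 (0.149), Ctsc to Mtss1 (0.150) and Ctsd to Adgre1 (0.196). Ctsk, with its few counts, had no near neighbour, the closest being Nf1 at 0.358. Without P5 CD11c+ replicate 2, an alternative chosen after seeing the data, Ctsa, Ctsh and Ctsz kept these nearest genes, and the other 7 cathepsins had others, such as Gusb for Ctsl (0.0633), Hltf for Ctss (0.0802) and Gpr137b for both Ctsb (0.0891) and Ctsd (0.105). Within the family and with all libraries, Ctsb and Ctsd were closest to each other (0.154), followed by Ctsa and Ctsl (0.164). The member nearest to Ctsc was Ctsb at 0.486, a greater distance than for the other members except Ctsk, and was Ctsb at 0.479 without replicate 2.

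Some reads of these genes could have been counted for a neighbour, since the strand setting was not given in the sources used here. Ctsb shares 767 of its 4739 exon bases with Fdft1 on the opposite strand, and Ctsa shares 495 and 324 of 4715 with Pltp and Neurl2. These neighbours had 2934, 8355 and 1053 counts over all libraries, against 883702 for Ctsb and 251575 for Ctsa. Ctsd shares 808 of 2351 exon bases with Gm49369 on the same strand, which had 11 counts in all, and Ctsz shares 10 of 1441 with Nelfcd.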

How the data were processed

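Per library, the authors deposited raw read counts of 49315 genes (whole numbers) with exon lengths. Per the submitters' processing notes, Trimmomatic 0.36, STAR 2.5.2b and Subread 1.5.2 were used. How multiply mapped reads were treated, the strand setting and the build are not given in the sources used here. Symbols came from GENCODE M21, in which 7 of the 10 cathepsins had the same start and end as deposited. P5 and 9-month libraries were fitted apart with edgeR 4.0.16 (R 4.3.3; filterByExpr, TMM, quasi-likelihood F-test, Benjamini-Hochberg adjustment over all genes tested, threshold 0.05), and the difference between ages on all 10 libraries. SE is the log2 fold change divided by the root of F. Alternatives were no filter, RLE factors, scaling to homeostatic markers, DESeq2 1.42.0, limma-voom (limma 3.58.1), a replicate block, 1 fit of all 10 libraries and each library left out. The tests were tested on simulated data. A first run with modest changes recovered none of them at P5 or for the difference between ages with all libraries, and larger changes were then added to the simulation, so a lack of calls there does not show that levels were alike. The cathepsins and the gene lists were chosen with earlier results of these data known. Named genes were all 10 cathepsins, up to 3 genes of smallest p per list and age, and the nearest gene of each cathepsin; M6pr, Cst3 and Tfeb were added after their values were seen. Replicates differed by more than sampling noise (chi-square per degree of freedom 28.3 to 243.9). Left-out per-sample columns numbered 0.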

Additional observations from a re-analysis of the deposited data

How the results depend on the processing

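Counts of cathepsins called were 0 at P5, 9 at 9 months and 0 for the difference between ages; leaving out each library gave 0 to 1, 8 to 9 and 0 to 3. At P5, DESeq2 called 1, and so did scaling to homeostatic markers without CD11c+ replicate 2, a setting chosen after seeing the data. At 9 months, scaling to homeostatic markers called 1 (lower), and 1 fit of all 10 libraries called 0 (adjusted p 0.0585 to 0.993). For the difference between ages, RLE factors called 1 (Ctsf, adjusted p = 0.0437), scaling to homeostatic markers 1, DESeq2 3, and that scaling without P5 CD11c+ replicate 2 called 4. With the replicate block 0, 9 and 0 were called. Shares of all genes are not given here for DESeq2, RLE factors or the block. Whether the replicate numbers pair the libraries could not be told. Same-numbered P5 libraries deviated together at r = 0.457, 0.095 and -0.403, and unlike-numbered ones at -0.473 to 0.459. At 9 months the same-numbered value was 0.086 and the other -0.086, which with 2 libraries per group mirror each other by construction.

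Signs turned as follows. At P5, Ctsh was -0.092 with limma-voom and -0.006 with the replicate block, and Ctsl -0.187 and -0.064. Scaled to homeostatic markers, Ctsk was 0.186 and Ctsz 0.312 (0.484 without CD11c+ replicate 2). Leaving out each library gave -0.224 to 0.457 for Ctsh, -0.348 to 0.487 for Ctsl, -0.414 to 0.056 for Ctsk and -0.296 to 0.23 for Ctsz, none past the threshold. At 9 months, scaling to homeostatic markers gave -0.035 for Ctsa, -0.369 for Ctsc, -0.986 for Ctsh, -0.292 for Ctsl, -0.396 for Ctss and -0.196 for Ctsz. Ctsk, at 9 to 51 counts, was 0.131 with limma-voom, 0.196 with the block, 0.073 in 1 fit and -0.751 to 1.372 with each library left out. For the difference between ages, scaling to homeostatic markers gave -0.683 for Ctsa, -0.915 for Ctsb, -0.796 for Ctsd, -1.405 for Ctsh, -1.735 for Ctsk, -0.71 for Ctsl and -0.509 for Ctsz. Without P5 CD11c+ replicate 2 as well, these were -1.0, -1.007, -0.736, -1.67, -1.368, -1.041 and -0.68, with Ctss at -0.232. Ctsk ranged from -0.125 to 1.839 with each library left out. The cause of these turns was not tested.

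Depth limits Ctsk, at 9 to 51 counts. At P5, the SE of Ctsc was 0.32 with CD11c+ replicate 2 and 0.17 without it.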
